A study of Mus musculus with 141 samples.

Results

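Podoplanin (*Pdpn*), *Clic5* and 5 genes for proteins that tie the membrane to actin (*Ezr*, *Msn*, *Rdx*, *Slc9a3r1* and *Slc9a3r2*) were followed in single lung epithelial cells. All 7 genes were chosen by name and have a row among the 17136 genes counted. The cells came from the lungs of 1 male *ACID;R26tdTomato* mouse, 4 months of age and labelled as strain 129SV (129S6/SvEvTac in the study's methods), in which Cre made from the *Aqp5* locus switches on the red reporter tdTomato, which then stays on, though not every cell with *Aqp5* is marked. The mouse carried 1 copy of each allele and was untreated. Cells sorted as CD31- CD45- E-cadherin+ tdTomato+ were captured on a Fluidigm C1 chip, of which only sites seen to hold single cells were analysed, and the deposited cells had 91402 to 2170760 reads each. A share of mitochondrial reads below 0.15 kept 92 of them and left out 49. The kept cells were divided into 45 type 1 cells (AT1, *Ager* at 5000 CPM or more), 11 type 2 cells (AT2, *Sftpc* at 8000 CPM or more) and 36 others, called the rest. Levels are in CPM, a gene's counts per 1000000 reads of the cell, or of the class where its cells were summed. No cell passed both limits. No read of tdTomato was found in 6 type 1, 9 type 2 and 6 other cells. The labels call every cell alveolar type 1, so the classes rest on the counts alone.

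The *Ager* limit fell in a gap of the data and the *Sftpc* limit at the lower edge of one. The kept cell nearest below the *Ager* limit had 1402 CPM and the nearest above it had 9335 CPM. For *Sftpc* the nearest values were 7774 CPM, in a cell of the rest with club genes, and 25437 CPM, and 3 cells lay within 2-fold of the limit. Marker genes other than the one that set each limit were compared with the classes. All 14 type 1 markers, among them *Hopx*, *Aqp5* and *Akap5*, were at least 2-fold higher in type 1 cells than in the rest, and all 12 type 2 markers were at least 2-fold lower in type 1 than in type 2 cells. By the marker list with the largest share of genes at 100 CPM or more, all 45 type 1 cells were led by the type 1 list and 10 of 11 type 2 cells by the type 2 list, while 1 type 2 cell was led by the club list. Without that cell the counts of members past 2-fold against type 2 cells were the same. Of the 36 cells of the rest, the leading list among those of other cell types was the club list in 15, the ciliated list in 13, the basal list in 6, the fibroblast list in 1 and the mesothelial list in 1. Median reads per cell were 468718 in type 1 cells, 413806 in type 2 cells and 693389 in the rest. With 1 mouse in 1 condition there is nothing to replicate a class, and differences are described without p-values. Ranges in parentheses are exact 95% intervals (Poisson for CPM, Clopper-Pearson for shares of cells) and cover counting error only, since reads were counted after PCR without molecular identifiers.

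Podoplanin is a mucin-like glycoprotein of the apical membrane of AT1 cells and of lymphatic endothelium, with a short tail that binds ezrin and moesin. Ezrin (*Ezr*), radixin (*Rdx*) and moesin (*Msn*), together the ERM proteins, hold membrane proteins with their FERM domain and actin filaments with their tail once phosphorylated. NHERF1 (*Slc9a3r1*) and NHERF2 (*Slc9a3r2*) are PDZ scaffolds that bind the FERM domain and gather channels and receptors at the apical surface, and CLIC5, of the chloride intracellular channel family, sits with ERM proteins at the base of cell protrusions such as the stereocilia of hair cells.

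The genes lie apart in GRCm38, with positions from GENCODE vM21. *Pdpn* spans chr4:143267431-143299564 and *Clic5* spans chr17:44188584-44280172. *Ezr* lies at chr17:6738041-6782784, *Msn* at chrX:96096042-96168552 and *Rdx* at chr9:52047173-52088735. *Slc9a3r1* covers chr11:115163341-115181181 and *Slc9a3r2* covers chr17:24639286-24650327. Since featureCounts settings on strand are not given in the sources used here, overlaps matter: the last 4 bases of *Ezr* overlap *Sytl3* on the other strand, which had 32 reads in the kept cells. The only near copy found in the annotated transcripts was a small RNA inside *Msn*, *Gm24718*, which has no row in the counts used here.

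The 250 bases before the RefSeq start (GRCm38.p6) are shown for 4 genes, *Pdpn*, *Clic5* and *Msn*, whose summed levels were higher in type 1 cells than in both other classes, and *Ezr*, whose level was lower. They read 5′ to 3′ on the gene's strand and end at the base before the start, and capitals mark matches on either strand to a GC box (GGGCGG), a forkhead core (TGTTTAC) or an AP-1 site (TGANTCA). No match overlapped another. The stretches of *Slc9a3r2*, also higher in summed type 1 cells than in both other classes, and of *Slc9a3r1*, also lower, are left out here.
Pdpn promoter, chr4:143299565-143299814, minus strand: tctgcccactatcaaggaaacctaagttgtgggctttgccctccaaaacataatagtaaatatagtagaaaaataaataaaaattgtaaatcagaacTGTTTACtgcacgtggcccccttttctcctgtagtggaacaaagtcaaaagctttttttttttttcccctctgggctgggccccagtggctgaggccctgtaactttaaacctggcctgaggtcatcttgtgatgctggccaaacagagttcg
Clic5 promoter, chr17:44188322-44188571, plus strand: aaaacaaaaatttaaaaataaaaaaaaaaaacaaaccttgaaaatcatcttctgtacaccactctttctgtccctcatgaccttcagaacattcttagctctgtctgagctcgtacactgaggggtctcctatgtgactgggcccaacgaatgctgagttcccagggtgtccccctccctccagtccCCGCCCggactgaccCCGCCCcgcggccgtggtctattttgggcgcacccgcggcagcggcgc
Msn promoter, chrX:96095795-96096044, plus strand: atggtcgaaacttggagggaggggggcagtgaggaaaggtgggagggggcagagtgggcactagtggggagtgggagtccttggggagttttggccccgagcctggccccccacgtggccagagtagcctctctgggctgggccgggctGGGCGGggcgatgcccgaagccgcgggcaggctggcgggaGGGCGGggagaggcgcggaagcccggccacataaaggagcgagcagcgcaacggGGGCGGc
Ezr promoter, chr17:6782781-6783030, minus strand: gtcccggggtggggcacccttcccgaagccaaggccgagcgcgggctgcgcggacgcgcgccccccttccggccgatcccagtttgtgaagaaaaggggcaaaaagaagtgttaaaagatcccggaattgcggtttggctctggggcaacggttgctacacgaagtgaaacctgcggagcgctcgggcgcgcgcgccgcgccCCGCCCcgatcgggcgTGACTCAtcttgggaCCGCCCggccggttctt
The *Pdpn* stretch was the poorest in G and C of the 4, at 43.2% against a median of 52.4% over 32851 promoters, and held 2 CG pairs. It had no GC box, whereas *Clic5* and *Ezr* had 2 each and *Msn* had 3. A GC box was found in 32.7% of all promoters, the forkhead core in 3.17% and the AP-1 site in 6.75%. Neither TATAAA (12.4% of promoters) nor the TEAD core GGAATG (12.6%) occurred in any of the 4 stretches. These matches describe letters and were not tested as binding sites.

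*Clic5* separated type 1 cells from all others more fully than any gene except *Ager*, which had set the class. It had 4486 CPM in summed type 1 cells (4459 to 4513), 73.6 CPM in type 2 cells (67.2 to 80.6) and 118.8 CPM in the rest (114.7 to 122.97). In single type 1 cells it ran from 385 to 11856 CPM with a median of 3735 CPM. Type 2 cells ran from 1.38 to 381 CPM with a median of 8.68 CPM, and the rest from 0 to 612 CPM with a median of 5.04 CPM. Thus the groups overlapped only at their edges: 43 of the 45 type 1 cells lay above the highest other cell, and 2 of the 47 other cells reached the lowest type 1 cell. In 99.8% of all pairs of 1 type 1 cell and 1 other cell the type 1 cell was higher, the second rank of 10194 genes. Values of 90% or more were found for 0.451% of these genes, values of 10% or less for 0.0196%, and 0.00981% had every type 1 cell above every other cell.

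*Pdpn* was also higher in summed type 1 cells, but unevenly from cell to cell. It had 898 CPM in type 1 cells (886 to 910), 1.54 CPM in type 2 cells (10 reads in all) and 140.4 CPM in the rest (135.99 to 144.96). Single type 1 cells ran from 0 to 5595 CPM with a median of 691 CPM. A level of 100 CPM, which is 14.2 reads in the shallowest kept cell, was used to call a cell high, a limit chosen after the values were seen. By it, 33 of 45 type 1 cells (73.3%, 58.1 to 85.4) were high in *Pdpn*, while all 45 were high in *Clic5*. None of the 11 type 2 cells was high in *Pdpn*, which allows a share of up to 27.3% (for a count of 0, the limit given is that of 3 counts). Of the rest, 6 of 36 cells were high, with up to 3848 CPM, and the median there was 1.39 CPM. So *Pdpn* overlapped between classes in both directions, as 12 type 1 cells were low and 6 other cells high. The type 1 cell was higher in 87.2% of pairs, rank 66 of 10194.

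**Figure D1:**
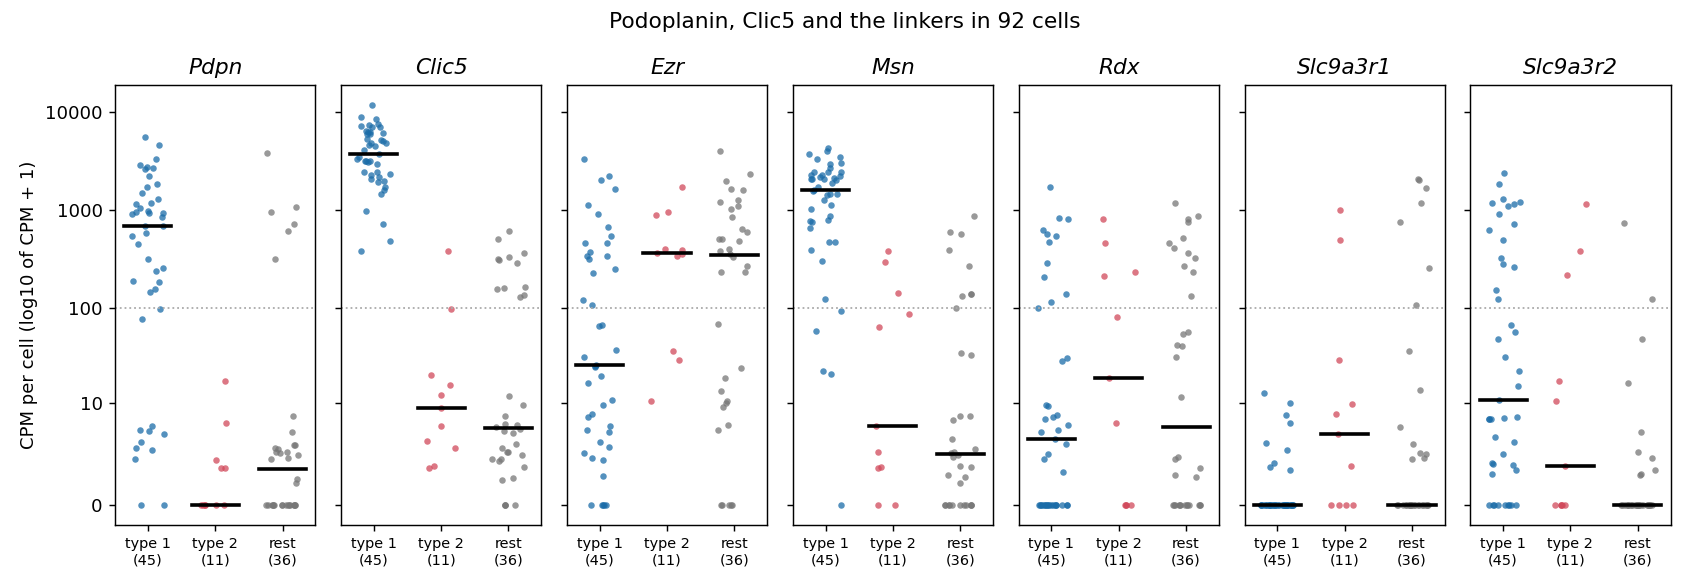
CPM of each gene in every kept cell, on a log10 scale of CPM + 1, for 45 type 1, 11 type 2 and 36 other cells. Points are cells, black bars are medians and the dotted line is 100 CPM; all type 1 cells lie above the line for *Clic5*, while their *Pdpn* values reach down to 0 and *Slc9a3r1* stays at or near 0.

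The 6 *Pdpn*-high cells of the rest had 317, 614, 733, 961, 1090 and 3848 CPM of *Pdpn*, and *Clic5* was at 11.9 CPM or less in every one. Some basal genes were found in most of them, and club genes too. *Krt15*, a basal keratin, was at 1218 to 6540 CPM in 5 of the 6, and *Trp63*, the basal cell transcription factor, was above 250 CPM in 4. *Krt14* and *Ngfr*, also of the basal list, had 0 reads in all 6, while *Krt14* was at 2002 and 2605 CPM in 2 basal-list cells low in *Pdpn*. Over the 6 cells the basal list summed to 6182 CPM and the club list to 48077 CPM, of which *Cbr2* was 28574 CPM, and *Dcn*, of the fibroblast list, was at 2560 CPM. The 3 cells at 317, 614 and 733 CPM had the basal list as their leading list and the other 3 the club list. The cell at 3848 CPM had no *Krt15* or *Trp63* read but 238 CPM of *Krt5*. *Ager* was at 61.5 CPM or less in all 6, so none was near the type 1 limit.

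The 12 *Clic5*-high cells of the rest were other cells than these. Their *Pdpn* values were at most 3.08 CPM. Of the 12, 6 were led by the ciliated list, 5 by the club list and 1 by the basal list, and the highest, a ciliated-list cell, had 612 CPM. No cell of the rest was high in both genes (0 of 36, which allows a share of up to 8.33%), against 33 of 45 type 1 cells. With an *Ager* limit of 10000 CPM the lowest type 1 cell joined the rest and gave 1 such cell. Summed by leading list, *Pdpn* was at 292 CPM in the 6 basal-list cells, 197 CPM in the 15 club-list cells and 1.18 CPM (9 reads) in the 13 ciliated-list cells. *Clic5* took another order, with 193 CPM in ciliated-list, 138.7 CPM in club-list and 20.1 CPM in basal-list cells. In the basal-list cells 88% of the *Clic5* reads came from 1 cell, and without it the level was 2.78 CPM. In the club-list cells 52.1% of the *Pdpn* reads came from 1 cell, and without it the level was 96.98 CPM. Only 3 of the 15 club-list cells were high in *Pdpn*, and their class median was 0 CPM. These 3 are among the 6 *Pdpn*-high cells described above. Of the 6 basal-list cells 3 were high, and the median was 159.9 CPM.

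**Figure D2:**
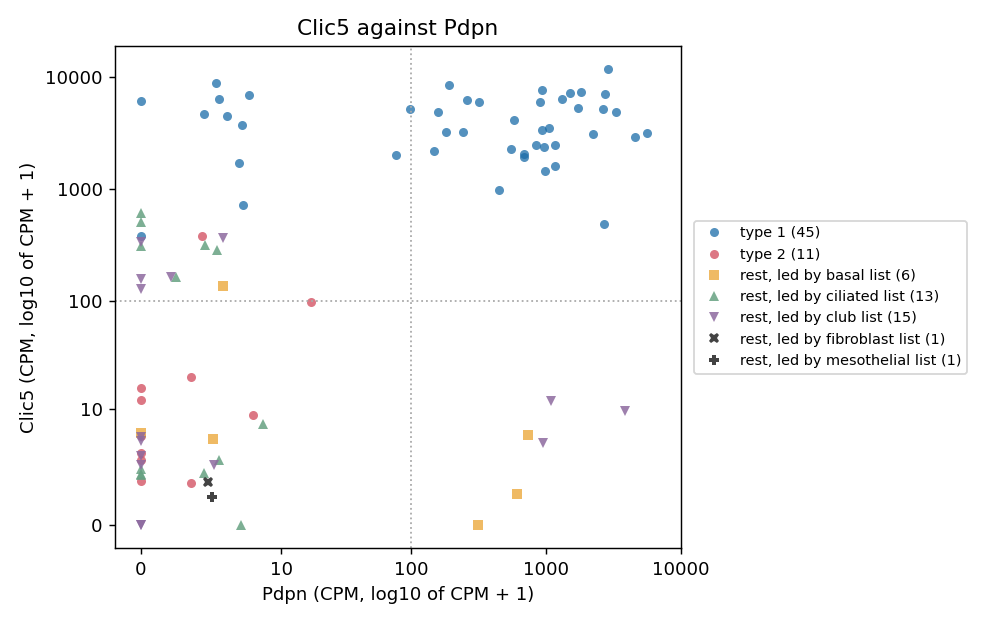
*Clic5* against *Pdpn* in the 92 kept cells, both in CPM on a log10 scale of CPM + 1, with dotted lines at 100 CPM and the cells of the rest marked by their leading marker list. The upper right holds 33 type 1 cells and no other cell, the lower right holds the 6 *Pdpn*-high cells of the rest, and 12 type 1 cells lie at the upper left.

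Among the ERM genes, *Msn* went with type 1 cells, summed *Ezr* was lower there than in type 2 cells and the rest, though not than in club-list cells taken alone, and *Rdx* differed little between the 3 pooled sums but widely within the classes. *Msn* had 1723 CPM in type 1 cells (1706 to 1740), 97.9 CPM in type 2 cells (90.4 to 105.8) and 86.6 CPM in the rest (83.1 to 90.1). Single type 1 cells ran from 0 to 4268 CPM with a median of 1612 CPM. Type 2 cells ran from 0 to 386 CPM with a median of 5.28 CPM, and the rest from 0 to 880 CPM with a median of 2.29 CPM. By the 100 CPM limit 40 of 45 type 1 cells (88.9%, 75.9 to 96.3), 3 of 11 type 2 cells and 8 of 36 others were high. The classes overlapped, but 31 type 1 cells lay above the highest other cell, and 93.97% of pairs had the type 1 cell higher (rank 23 of 10194).

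*Ezr* had 335 CPM in type 1 cells (328 to 343), 730 CPM in type 2 cells (710 to 751) and 617 CPM in the rest (608 to 627). The medians stood further apart than the sums, at 25.5 CPM in type 1 cells, 367 CPM in type 2 cells and 346 CPM in the rest. Single values ran from 0 to 3362 CPM in type 1 cells, from 10.5 to 1723 CPM in type 2 cells and from 0 to 4021 CPM in the rest. High cells were 18 of 45 (40%, 25.7 to 55.7), 8 of 11 and 22 of 36. The classes overlapped over almost the whole range, since 5 type 1 cells passed 1000 CPM. In type 2 cells 54.1% of the *Ezr* reads came from 1 cell, and without it the level was 435 CPM.

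*Rdx* had 180 CPM in type 1 cells, 205 CPM in type 2 cells and 181.9 CPM in the rest, with 12 of 45, 4 of 11 and 12 of 36 cells high. It was not detected in many cells of each class, with 0 reads in 18 of 45, 4 of 11 and 13 of 36 cells and a highest value of 1720 CPM in a type 1 cell. Of the type 2 reads of *Rdx*, 43.5% came from 1 cell, and without it the level was 129.96 CPM. In chip columns 1 to 10 type 2 cells had 411 CPM and the rest 119.9 CPM, and in columns 11 to 20 they had 46.6 and 286 CPM. Within the rest, basal-list cells had 296 CPM and club-list cells 47.2 CPM, and without the highest cell of each they had 124.5 and 26.9 CPM.

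The ratio of *Ezr* to *Msn* reads, which can be set between classes but not read as a ratio of transcripts, was 0.195 in type 1 cells (0.190 to 0.199), 7.46 in type 2 cells (6.87 to 8.12) and 7.13 in the rest (6.83 to 7.45). Without the cell with most *Msn* reads it was 0.2003, 5.12 and 10.7, and without the cell with most *Ezr* reads 0.167, 5.12 and 4.98. It was 8.89 in ciliated-list, 7.31 in basal-list and 4.49 in club-list cells, but 1 cell held 62%, 65% and 76.6% of their *Msn* reads, and without it the ratios were 20.4, 20.9 and 19.2, so no order between the 3 is read from them. The cell led by the fibroblast list had a ratio of 0.0418, with 574 CPM of *Msn* and 23.98 CPM of *Ezr*. At the other end was the cell led by the mesothelial list, which had all 5 mesothelial markers, the highest *Ezr* of any kept cell (4021 CPM), 822 CPM of *Rdx*, 762 CPM of *Slc9a3r1* and only 7.12 CPM of *Msn*. Its *Pdpn* was 2.37 CPM. This cell also had 5 of 6 fibroblast genes at 10 CPM or more, which summed to 4453 CPM beside 5830 CPM for the mesothelial list.

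Of the NHERF scaffolds, type 1 cells had *Slc9a3r2* and next to no *Slc9a3r1*. *Slc9a3r1* was nearly absent from type 1 cells, with 19 reads in 45 cells, which is 0.821 CPM (0.495 to 1.28), and no cell above 12.7 CPM. No type 1 cell was high (0 of 45, which allows a share of up to 6.67%). It had 161 CPM in type 2 cells and 175 CPM in the rest, yet few cells were high there, 2 of 11 and 7 of 36. Reads were found in 7 of 11 and 15 of 36 cells, with medians of 4.20 and 0 CPM. In the type 2 cells 70.2% of its reads came from 1 cell, and without that cell the level was 62.3 CPM. Ciliated-list cells had most of it, with 487 CPM in sum, 5 of 13 cells high and a highest value of 2065 CPM. Club-list cells had 6.34 CPM and the 6 basal-list cells had 0 reads, which allows up to 0.604 CPM.

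*Slc9a3r2* had 285 CPM in type 1 cells (279 to 292), 231 CPM in type 2 cells (220 to 243) and 27.9 CPM in the rest (26.0 to 30.0). It was uneven in type 1 cells, with a median of 10.7 CPM, a highest value of 2407 CPM and 16 of 45 cells high (35.6%, 21.9 to 51.2). Among other cells, 3 of 11 type 2 cells and 2 of 36 cells of the rest were high. In the rest 85.2% of the reads came from 1 ciliated-list cell, and without it the level was 4.28 CPM. In type 2 cells the level without its highest cell was 115.4 CPM. The ratio of *Slc9a3r1* to *Slc9a3r2* reads was 0.00288 in type 1 cells (0.00173 to 0.00450), 0.696 in type 2 cells (0.643 to 0.754) and 6.29 in the rest (5.82 to 6.80). Without the cell with most *Slc9a3r2* reads it was 0.00358, 1.57 and 42.4, and without the cell with most *Slc9a3r1* reads 0.00197, 0.337 and 4.88, so that in type 2 cells 1 cell decides on which side of 1 it lies. Of the 92 cells, 1 type 2 cell was high in both scaffold genes.

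**Figure D3:**
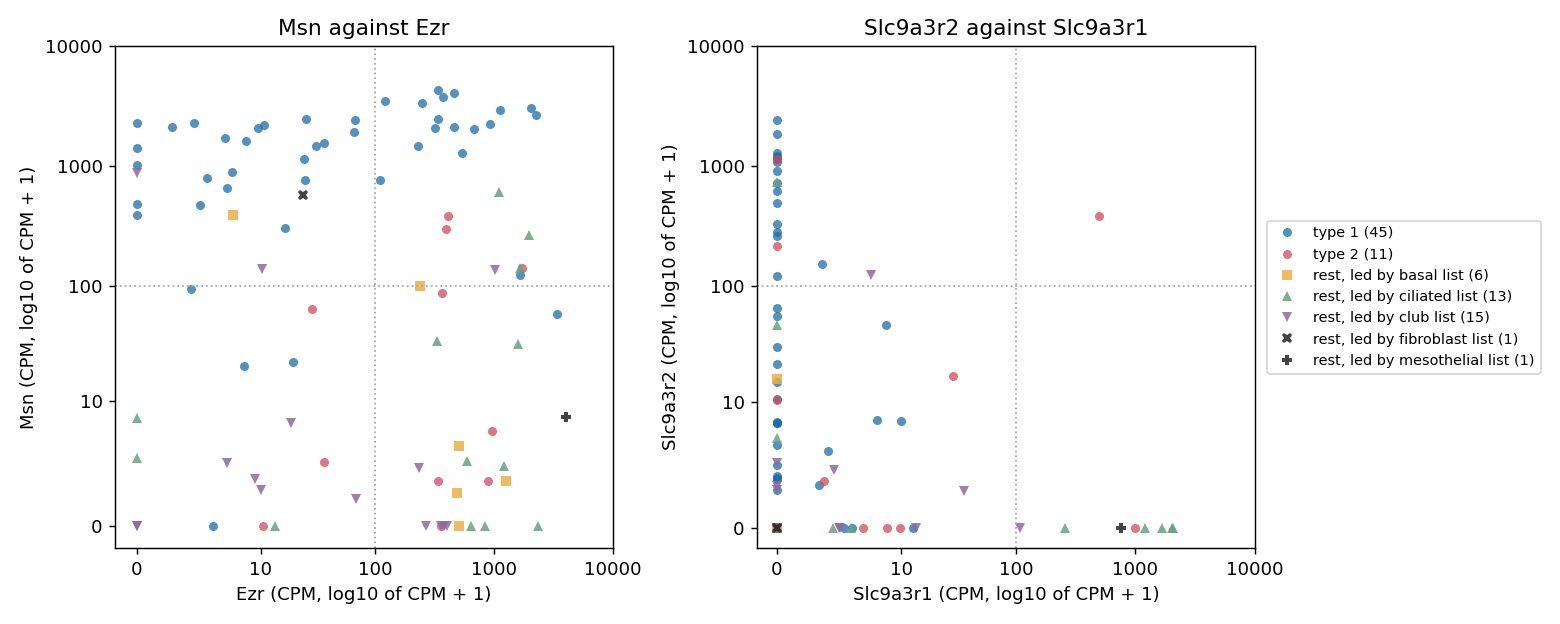
*Msn* against *Ezr* and *Slc9a3r2* against *Slc9a3r1* in the 92 kept cells, in CPM on a log10 scale of CPM + 1, with dotted lines at 100 CPM and the rest marked by leading list. Most type 1 cells lie at the top of the *Msn* plot, with *Ezr* from 0 to 2253 CPM, while the 1 with most *Ezr* (3362 CPM) had 58.1 CPM of *Msn*. Type 1 cells keep to the left edge of the scaffold plot, and 1 type 2 cell is in its upper right.

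**Figure D4:**
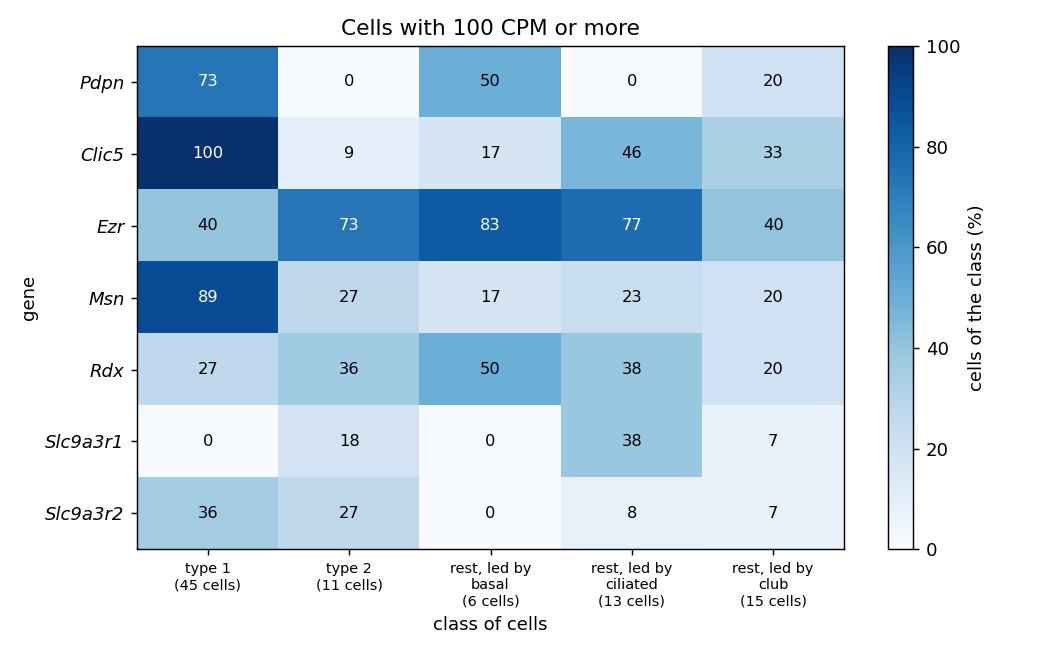
Percent of cells with 100 CPM or more of each gene, by class and, for the rest, by leading list; the 2 cells led by the fibroblast and mesothelial lists are left out. Each row is read from left to right, since levels of different genes are not on 1 scale; *Clic5* goes from 100% in type 1 cells to 9% in type 2 cells and *Slc9a3r1* from 0% in type 1 cells to 38% in ciliated-list cells.

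Between summed classes, 4 of the 7 genes were at least 2-fold higher in type 1 cells than in the rest, and 1 was at least 2-fold lower. Folds are log2 ratios of CPM with 1 CPM added to both, for genes with at least 10 CPM in either class. Of all 10205 such genes, 32.9% were higher and 34.5% were lower by that rule, 67.4% in either direction, so a 2-fold difference alone marks nothing. On the log2 scale the differences from the rest were 5.23 for *Clic5*, 4.30 for *Msn*, 3.31 for *Slc9a3r2* and 2.67 for *Pdpn*, and -6.60 for *Slc9a3r1*. *Ezr* at -0.88 and *Rdx* at -0.01 were inside the 2-fold limits. For the rest as ciliated-list cells alone, the *Pdpn* value was 8.69, and for the rest as basal-list cells alone it was 1.62. Against basal-list cells, which had 0 reads of *Slc9a3r1*, the sign of that gene turned, to 0.87, a value set by the 1 CPM added. Against club-list cells *Ezr* was at 1.28.

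Against type 2 cells 3 of the 7 were higher and 2 were lower by 2-fold or more, beside 50.9% and 24% of 8796 genes (74.9% in either direction), whose median was 1.10. *Pdpn* differed by 8.46, *Clic5* by 5.91 and *Msn* by 4.12 on the log2 scale. *Slc9a3r1* was at -6.48 and *Ezr* at -1.12. *Rdx* (-0.18) and *Slc9a3r2* (0.30) were inside the limits, but neither value was stable. At a mitochondrial maximum of 0.10 *Rdx* was at -2.75 and *Slc9a3r2* at 3.64. In chip columns 1 to 10 and 11 to 20 *Rdx* was at -1.44 and 2.21, and *Slc9a3r2* at 2.83 and -0.02. Without the cell with most reads of the gene in each class, *Ezr* was at -0.64 and left the count, and *Slc9a3r2* was at 1.03 and entered it. *Clic5* was then at 8.39, since 86.4% of its type 2 reads were in 1 cell. Type 2 cells differed from the rest by 2-fold or more in *Slc9a3r2* (3.01) and *Pdpn* (-5.80), 1 gene higher and 1 lower beside 21.3% and 50.7% of 9351 genes (72% in either direction), whose median was -1.06. The *Slc9a3r2* value turned to -0.57 in chip columns 1 to 10. *Clic5* was at -2.95 without the cell with most reads of the gene in each class. Over 23 alternatives, 0 to 5 members were higher in type 2 cells than in the rest and 1 to 3 were lower.

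Values were also taken within each part of the chip by its columns. The labels also give a chip row for each cell, by which cells were not divided here. In columns 1 to 10 and in columns 11 to 20, the log2 differences of type 1 cells from the rest were 5.04 and 5.62 for *Clic5*, 2.44 and 3.10 for *Pdpn*, and 3.78 and 5.49 for *Msn*. They were 2.27 and 7.38 for *Slc9a3r2*, and -5.35 and -7.38 for *Slc9a3r1*. *Ezr* was at -1.62 in the earlier columns and -0.19 in the later ones. Reads of the abundant mRNA of another class were found in every class. *Sftpc*, at a median of 161808 CPM in type 2 cells, had a median of 97.6 CPM in type 1 cells, and *Ager* had a median of 22.1 CPM in the rest. *Ager* had a median of 820 CPM in type 2 cells, with 9 of 11 at 100 CPM or more, and *Scgb1a1*, the secretoglobin of club cells, a median of 177 CPM in type 1 cells, with 28 of 45 at 100 CPM or more. So a level of a few CPM is not read here as expression. For mRNAs this abundant 100 CPM is not read as expression or as reads of other cells, since their source was not tested. The study reports high *Ager* in AT2 cells of the Mouse Cell Atlas. The part of reads from other cells in the members' levels was not tested.

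Markers of other cell types in type 1 cells ranged from 0 to levels like those of some linkers. Endothelial genes summed to 0.476 CPM, with *Kdr*, *Cldn5*, *Egfl7* and *Tek* at 0, fibroblast genes to 1.21 CPM, and *Reln*, the only one of 5 lymphatic endothelial markers with a row, was at 0. Of 6 macrophage markers 2 had a row, *Csf1r* at 348 CPM and *Ptprc* at 0. The mesothelial list summed to 406 CPM, of which *Gpm6a* was 405 CPM, with *Wt1* and *Lrrn4* at 0. Club genes summed to 826 CPM, of which *Scgb1a1* was 588 CPM, beside 181739 CPM for the club list in the rest. The 12 type 2 markers summed to 448 CPM, of which *Abca3* was 256 CPM. The type 2, club, macrophage and mesothelial sums are as large as the levels of *Ezr*, *Rdx* and *Slc9a3r2* in the same cells, and their part in those levels was not tested. The macrophage sum is *Csf1r* alone, in cells sorted as CD45-.

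Cell by cell, *Pdpn*, *Clic5* and *Msn* went together across all cells and not within type 1 cells. Over the 92 cells Spearman's correlation was 0.56 for *Pdpn* and *Clic5* (Pearson 0.52), 0.63 for *Clic5* and *Msn* (0.72) and 0.49 for *Pdpn* and *Msn* (0.38), on log values per 10000 reads. Within the 45 type 1 cells the same values were 0.06 (0.07), 0.00 (0.05) and -0.29 (-0.34). Within the 36 cells of the rest, *Pdpn* and *Clic5* had -0.08 (-0.27), *Clic5* and *Msn* -0.17 (-0.16), and *Pdpn* and *Msn* 0.30 (0.38). With the other linkers in the rest, *Pdpn* had -0.36 (-0.37) for *Ezr* and 0.11 (0.16) for *Rdx*. For *Slc9a3r1* it had -0.42 (-0.20) and for *Slc9a3r2* -0.07 (-0.09). No read of *Pdpn* was found in 16 of these 36 cells. Points are cells of 1 mouse on 1 chip that differ in depth and, over all 92, in class, so these are descriptions with no p-value. With total reads, rank correlation within type 1 cells was -0.15 for *Pdpn*, 0.23 for *Clic5* and 0.11 for *Msn*.

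The 12 type 1 cells low in *Pdpn* were set beside the others by their type 1 genes. Of the 14 type 1 markers, 8 had a lower median in them than in the 33 *Pdpn*-high cells and 6 did not. Their *Clic5* ran from 385 to 8910 CPM with a median of 4568 CPM, beside a median of 3362 CPM in the *Pdpn*-high cells. Median *Ager* was 21275 CPM in the low and 21986 CPM in the high cells. Median *Aqp5* was 377 and 443 CPM, and median *Hopx*, a nuclear protein of AT1 cells, was 4270 and 6085 CPM. All 12 were high in *Msn*, with 662 CPM or more, beside 88.9% of all type 1 cells. The 5 type 1 cells low in *Msn* were all high in *Pdpn*, with at least 190 CPM, beside 73.3% of all type 1 cells. Every type 1 cell therefore had at least 1 of the 2 genes above 100 CPM, and 28 had both. Shares this high leave room for few cells low in both, so no link between the 2 genes is read from these counts.

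Being high in *Ezr* did not go with being low in *Msn*. Of the 18 *Ezr*-high type 1 cells 17 were also high in *Msn*, beside 23 of the 27 *Ezr*-low cells and 88.9% of all type 1 cells. Median *Msn* was 2338 CPM in the 18 beside 1143 CPM in the *Ezr*-low cells. The 1 exception had the highest *Ezr* of all type 1 cells, 3362 CPM, and 58.1 CPM of *Msn*. The rank correlation of *Ezr* and *Msn* was 0.42 within type 1 cells, but Pearson's r was 0.20, so the relation depends on the measure. Over all 92 cells it was -0.07. Of the 5 linkers, type 1 cells were most often high in *Msn* alone (9 cells), in *Ezr* and *Msn* (9) or in *Msn* and *Slc9a3r2* (6). All 3 ERM genes were high in 4 of 45 type 1 cells and none of the 3 in 4. No linker was high in 3 cells, all of which were still high in *Pdpn* and *Clic5*. In the rest, all 7 *Slc9a3r1*-high cells were among the 22 *Ezr*-high cells, with a rank correlation of 0.48 (Pearson 0.57) over the 36 cells.

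The genes most like each member were ranked by rank correlation among 1459 genes with a read in at least 50% of type 1 cells. Over all 92 cells, the 5 nearest to *Pdpn* were *Akap5* (0.68), *Aqp5* (0.66), *Sparc* (0.63), *Vegfa* (0.63) and *Igfbp7* (0.61), with *Clic5* at rank 17 and *Msn* at rank 46. For *Clic5* they were *Cadm1* (0.80), *Emp2*, *Hopx*, *Pmp22* and *Vegfa* (0.77), and for *Msn* they were *Col4a3* (0.71), *Sparc*, *Limch1*, *Cldn18* and *Akap5* (0.68). *Ezr* was at rank 1397 for *Pdpn* and 1152 for *Clic5*. Within type 1 cells the nearest were other genes and the values lower. They were *Ddx17* (0.49), *Carkd*, *Gm14586*, *Huwe1* and *Hnrnpab* for *Pdpn*. For *Clic5* they were *Gm13532* (0.51), *Rps27a-ps2*, *Gm8430*, *Cst3* and *Rap1b*, of which at least *Rps27a-ps2* is a pseudogene by name and can share reads with its parent. For *Msn* they were *Gsn* (0.54), *Mthfd1*, *Gpx4*, *Trip11* and *Oaz1*, with *Ezr* at rank 9 and *Pdpn* at rank 1435. For *Pdpn* within type 1 cells, 90% of all genes fell between -0.23 and 0.23, with *Clic5* (0.06) inside that range and *Msn* (-0.29) below it.

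Of 6 podoplanin partners 4 reached 10 CPM, with 2 higher and 1 lower in type 1 cells than in the rest, and of 11 ERM membrane partners 6 reached it, with 1 higher and 3 lower, shares close to the 67.4% of all genes past 2-fold. *Cd44*, a hyaluronan receptor in both lists that binds podoplanin and ERM proteins, was almost missing from type 1 cells, with 16 reads or 0.692 CPM, beside 349 CPM in type 2 cells and 225 CPM in the rest. It was high in 0 of 45, 6 of 11 and 16 of 36 cells. *Icam1*, an adhesion receptor whose tail binds ERM proteins, went the other way, with 2488 CPM, 281 CPM and 158 CPM, and was high in 37 of 45, 4 of 11 and 11 of 36 cells. *Cd9*, a tetraspanin that binds podoplanin, had 972 CPM, 204 CPM and 377 CPM. *Cd47* had 422 CPM in type 1 cells and 196 CPM in the rest. *Sdc4*, a syndecan, was at 157, 335 and 170.5 CPM in type 1, type 2 and other cells, whereas *Sdc2* had 88.6 CPM in the rest and 1.12 CPM in type 1 cells.

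*Clic3* and *Clic4*, of the same family as *Clic5*, were higher in type 1 cells than in the rest as well. *Clic3* had 3183 CPM there, 297 CPM in type 2 cells and 284 CPM in the rest, and 40 of 45 type 1 cells were high. *Clic4* had 94.3 CPM in type 1 cells and 21.9 CPM in the rest. The other 2 were nearly absent from type 1 cells, *Clic1* at 0.865 CPM beside 58.6 CPM in the rest and *Clic6* at 0.173 CPM (4 reads) beside 124.2 CPM.

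Of the relatives that share the FERM domain, 9 of 16 had a row, and 5 were higher and 3 lower in type 1 cells than in the rest (55.6% and 33.3%, beside 32.9% and 34.5% of all genes). *Fermt2* (kindlin-2), which helps activate integrins, had 359 CPM against 41.8 CPM and *Tln1*, talin, 194 against 62.3 CPM. *Frmd4a* (183 against 2.55 CPM), *Frmd6* (78.2 against 0.702 CPM) and *Frmd8* (22.4 against 0.887 CPM) were higher too. *Nf2*, the tumour suppressor merlin, was lower at 2.51 against 23.7 CPM, as were *Frmd4b* and *Fermt1*. Of 17 kinases, phosphatases and small GTPase switches that turn ERM proteins on and off, 5 were higher and 2 lower (29.4% and 11.8%, both below the shares of all genes). *Rhoa* had 271 against 112.9 CPM, *Arhgdia* 453 against 117.02 CPM, and *Ppp1r12a*, *Cdc42bpa* and *Cdc42bpb* were higher at 41.2 to 97.1 CPM. The ERM kinase *Stk10* (LOK) was lower, at 1.60 against 55.6 CPM, and its relative *Slk* had 141.7 against 73.4 CPM. *Rock1*, *Rock2*, *Cdc42* and *Rac1* were inside the 2-fold limits.

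Of 23 other links between membrane and actin, 20 reached 10 CPM, and 11 were higher and 7 lower in type 1 cells than in the rest (55% and 35%, beside 32.9% and 34.5% of all genes). Dystroglycan, *Dag1*, had 987 against 91.95 CPM and its actin linker utrophin, *Utrn*, 389 against 22.8 CPM. The class I myosins *Myo1c* (606 against 31.3 CPM) and *Myo1d* (149 against 37.3 CPM) were higher, as were the spectrins *Sptan1* (843 against 209 CPM) and *Sptbn1* (912 against 269 CPM), vinculin, *Vcl* (277 against 31.3 CPM), *Add1*, *Actn1* and *Iqgap1*. *Marcks* had 4 reads in type 1 cells and 160 CPM in the rest. *Add3* and *Marcksl1* had 1 read each in type 1 cells, beside 60.7 and 54.1 CPM. *Ank3* (14.6 against 120.3 CPM), *Myo6* (28.6 against 161 CPM), *Dmd* and *Tprn* were lower as well.

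Of 11 microvillus and cilium genes, 6 reached 10 CPM. The bundlers *Pls1* and *Pls3* (728 against 227 CPM), *Cobl* and *Eps8l2* (404 against 123.7 CPM) were higher in type 1 cells, while *Eps8* had 1 read there and *Espn*, espin, 0.389 CPM. Villin and 13 other list genes have no row in the counts and were not analysed here. Of actin itself and its partners, 6 of 20 were higher and 3 lower (30% and 15%). *Actb* had 4219 CPM in type 1 cells and 2231 CPM in the rest, *Actg1* 562 and 736 CPM, and the non-muscle myosin genes *Myl12b* (2336 against 476.5 CPM), *Myh14* (621 against 117.2 CPM) and *Myh9* (475 against 144 CPM) were higher. Over all 85 list genes tested, 36 were higher and 22 lower (42.4% and 25.9%, beside 32.9% and 34.5% of all 10205 genes), with a median log2 difference of 0.71 beside 0.00 for all genes. The lists were chosen with earlier results of these cells known, and nothing is called particular to them.

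**Figure D5:**
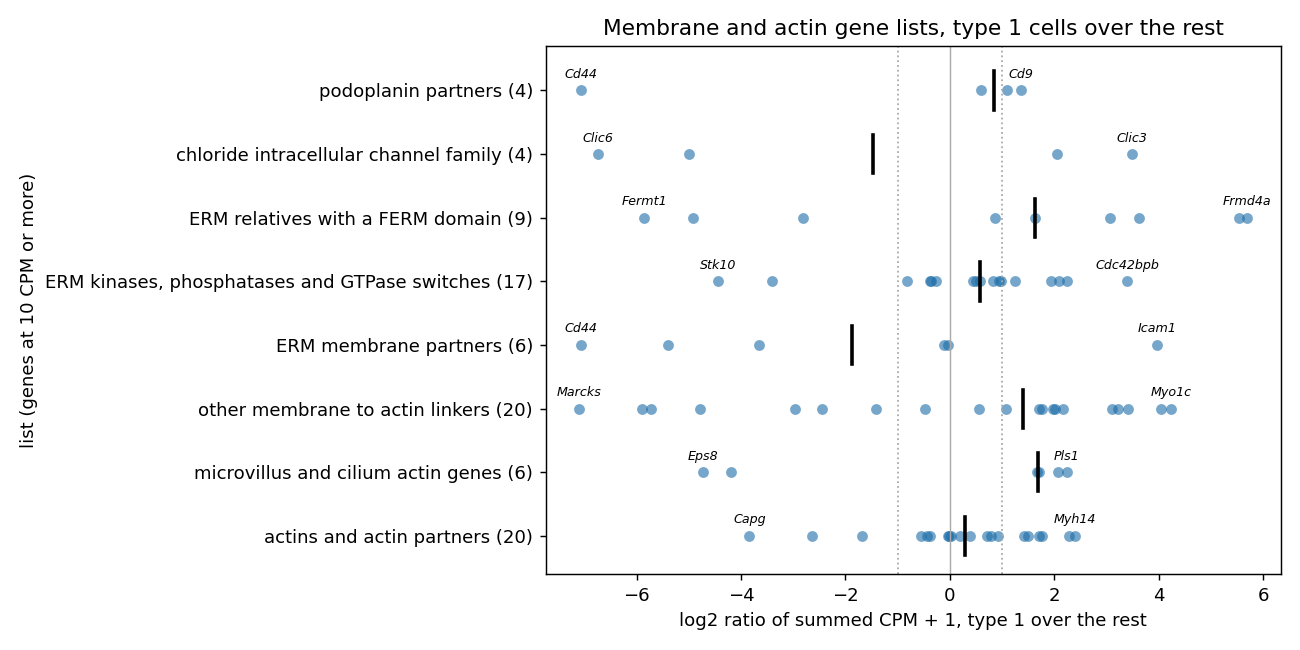
Log2 ratio of summed CPM + 1 in type 1 cells over the rest for each gene of the 8 lists that reached 10 CPM, with list medians as black bars, the 2-fold limits dotted and the lowest and highest gene of each list named. *Cd44* lies at -7.06 in the 2 partner lists, *Icam1* at 3.97 and *Clic3* at 3.48.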

How the data were processed

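The labels name Trim Galore, FastQC, HISAT2 with GRCm38 and featureCounts, with versions not given in the sources used here, and per the labels and the study's methods the authors deposited unnormalized read counts per gene and cell. No molecular identifiers are stated. Each cell is 1 GEO sample of the same mouse and group, mapped by chip column and row.

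From the counts, CPM, summed CPM per class and log2 ratios with 1 CPM added were computed for genes at 10 CPM or more in either class. Correlations used the natural log of 1 + reads per 10000. Positions come from GENCODE vM21, where 16112 of 17136 symbols (94%) matched, and promoters from RefSeq tables, in which all 7 members had an entry. Transcripts were compared with blastn 2.17.0 (95% identity over 120 bases). Python 3.11.15, pandas 2.3.3, scipy 1.17.1 and scran 1.30.0 were used, and the scripts were tested on simulated data. A filter of over 90000 reads and 500 genes removed no cell. Per the study's methods, chip sites were viewed by microscope and only those with single cells analysed, and no doublet caller was run.

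The genes and lists were chosen with earlier results of these data known. Named genes are the members, list genes past the 2-fold limit or needed to account for a list, and the 5 most alike by rank correlation. The 100 CPM limit, the division of the rest by leading list and the runs without certain cells were chosen after seeing the data. Of the list of other linkers, 1 gene is counted but not reported by name here. Some genes past the limit in other lists are also counted without a name, among them the 3 lower genes of the actin list.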

Additional observations from a re-analysis of the deposited data

Results flagged for a closer look

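The 49 cells left out for a mitochondrial share of 0.15 or more are used in no comparison above, and 19 of them had *Ager* at 5000 CPM or more. The members were read in these 19 cells too, which is why they are given here. Their summed reads gave 2825 CPM of *Clic5*, 1096 CPM of *Pdpn* and 985.4 CPM of *Msn*, and 17 of 19 cells were high in *Clic5*, 10 in *Pdpn* and 17 in *Msn*. *Ezr* was at 169.5 CPM, *Slc9a3r2* at 186.6 CPM and *Rdx* at 68.17 CPM. When the cell with most reads of the gene was left out, these levels were 78.8, 123.3 and 19.6 CPM. *Slc9a3r1* had 0 reads in all 19, which allows up to 0.376 CPM. Summed levels of *Clic5*, *Msn*, *Ezr*, *Rdx* and *Slc9a3r2* were below those of the kept type 1 cells and that of *Pdpn* was above. By cell *Pdpn* was lower in the 19, with a median of 479 CPM beside 691 CPM and 52.6% of cells high beside 73.3%. Median *Rdx* was 4.62 CPM beside 3.73 CPM, both only a few CPM. Whether the mitochondrial share has a part in these differences was not tested. Among the 16 left-out cells in the *Sftpc* class, 3 were high in *Clic5* and none in *Pdpn*. The highest, at 2811 CPM, held 72% of the *Clic5* reads of the 16 cells and lay near both class limits, with 8718 CPM of *Sftpc*, 4696 CPM of *Ager* and 1132 CPM of *Hopx*. With it the summed level of *Clic5* was 201 CPM, and without it 59.4 CPM. The 14 other left-out cells had 710 CPM of *Ezr*, 5.77 CPM of *Msn* and 0.962 CPM of *Pdpn*.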

How the results depend on the processing

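No paired analysis was possible because all cells form 1 group of 1 mouse. The count of members 2-fold higher in type 1 cells than in the rest was 4 to 6 over 22 alternatives, and against type 2 cells it was 3 or 4 over 20. The count of members lower than in the rest (1) became 2 at a mitochondrial maximum of 0.10, with all deposited cells, at a *Sftpc* limit of 4000 CPM, with *Ager*, *Sftpc* and *Scgb1a1* left out of the library size, in chip columns 1 to 10 and with ciliated-list cells as the rest, and 0 with basal-list cells as the rest. The count lower than in type 2 cells (2) became 1 at a *Sftpc* limit of 4000 CPM, with the mean over cells and after thinning to 90000 reads. It was also 1 without the cell with most reads of each gene in each class and in chip columns 11 to 20, and it became 3 in chip columns 1 to 10. *Ezr*, at -0.88 against the rest and -1.12 against type 2 cells, lies close to the 2-fold limit. Against club-list cells alone *Ezr* was higher, at 1.28. *Rdx*, inside the limits, ran from -1.80 (maximum of 0.10) to 1.91 (club-list cells) against the rest and from -2.75 (maximum of 0.10) to 2.21 (columns 11 to 20) against type 2 cells, where *Slc9a3r2* reached 3.64 (maximum of 0.10). Of differences of 2-fold or more, 4 turned their sign. *Slc9a3r1* against the rest was 0.87 with basal-list cells as the rest. *Pdpn* in type 2 cells over the rest was 0.22 with ciliated-list cells as the rest, and *Slc9a3r2* in the same comparison was -0.49 at a maximum of 0.10 and -0.57 in chip columns 1 to 10. The cause was not tested. The rank correlation of *Pdpn* and *Clic5* was 0.49 to 0.61 over all cells and -0.07 to 0.24 within type 1 cells in 16 alternatives. That of *Clic5* and *Msn* within type 1 cells ran from -0.33 (maximum of 0.10) to 0.15 (maximum of 0.20). *Clic5* and *Msn* kept a log2 difference from the rest of at least 4.53 and 3.78.

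The main limits are 1 mouse, 11 type 2 cells and reads without molecular identifiers, so that a class level can rest on 1 cell, as for *Clic5*, *Ezr* and *Slc9a3r1* in type 2 cells. A gene at 0 in a cell was not detected at this depth, which is not the same as absent.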

Other observations

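Type 2 cells, which had almost no *Pdpn*, had other genes of the same lists, named here after their values were seen. *Ank3*, the ankyrin that joins spectrin to membrane channels, had 521 CPM in the 11 type 2 cells, 14.6 CPM in type 1 cells and 120.3 CPM in the rest, and was high in 7 of 11 type 2 cells. *Cdc42bpa*, a kinase of the ERM list, had 333 CPM there and 97.1 CPM in type 1 cells, with 5 of 11 cells high and 53.9% of the reads in 1 cell. *Eps8*, an actin capping protein of microvilli, had 119.3 CPM in type 2 cells, from 2 of 11 cells. Nearly absent from type 2 cells was *Sptan1*, a spectrin, at 2.32 CPM (15 reads) beside 843 CPM in type 1 cells. *Tagln2*, an actin-binding protein, was at 2028 CPM in type 2, 1264 CPM in type 1 and 770 CPM in other cells.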
